A study of Mus musculus with 6 samples.

Results

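Basement membrane and endocytic genes of the primitive endoderm were followed in a comparison of female with male mouse blastocysts. They were chosen by name, as genes known for that tissue, by a rule that uses no measured value but was written with earlier results of these data known: the laminin chains Lama1, Lamb1 and Lamc1, the type IV collagen chains Col4a1 and Col4a2, the matrix protein Sparc, the collagen chaperone Serpinh1, and Dab2, Cubn and Lrp2 of the endocytic apparatus. All 10 genes were on the array, through 16 probes with a single gene symbol, among 8973 named genes in all. Whole E3.5 embryos came from superovulated B6C3F1 females of 8 weeks mated with XGFPY males, and were cultured in kSOM for 38 h from the 4-cell stage without further treatment. Each RNA came from a pool of over 200 embryos of a single sex, how sexes were separated not being stated in the sources used here. Female and male RNA were hybridised together on 2-colour arrays, in 3 preparations that the series describes as independent, each in both dye orientations. Female RNA carried Cy5 on 3 arrays and Cy3 on the other 3. All values are log2 ratios, female over male unless said otherwise, so 0 means equal signal. Means carry the SD over preparations (n = 3), a preparation being the mean of its 2 arrays.

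The primitive endoderm is the epithelium that forms on the blastocoel face of the inner cell mass. Its descendants lay down a basement membrane, the sheet that separates them from neighbouring cells. Laminin, a trimer of an alpha, a beta and a gamma chain, polymerises first, and a network of type IV collagen, built from the Col4a1 and Col4a2 products, stabilises the sheet. Sparc binds that collagen, and Serpinh1 (Hsp47) folds it in the endoplasmic reticulum. The same cells take up nutrients by endocytosis through the large receptors cubilin (Cubn) and megalin (Lrp2), and Dab2 links such receptors to the clathrin coat. The embryo pools hold all cell types, so fewer cells of a type and less RNA per cell cannot be told apart. Ratios carry no level, so whether these genes were expressed above background was not analysed here, and neither was the identity of the tissue by its markers.

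Promoter windows of RefSeq (GRCm38.p6, from 250 bases before to 50 after an annotated start) were found for 8 of the 10 genes. Col4a1 and Col4a2 are shown because they lie head to head and their windows overlap, which makes them the natural pair to compare. Their windows overlap by 78 bases, in capitals, and their annotated starts lie 21 bases apart. The 50 bases after each start lie within the capitals, so much of the shared stretch lies downstream of the starts. The Col4a2 window is chr8:11312555-11312854 on the plus strand and the Col4a1 window chr8:11312777-11313076 on the minus strand.
Col4a2: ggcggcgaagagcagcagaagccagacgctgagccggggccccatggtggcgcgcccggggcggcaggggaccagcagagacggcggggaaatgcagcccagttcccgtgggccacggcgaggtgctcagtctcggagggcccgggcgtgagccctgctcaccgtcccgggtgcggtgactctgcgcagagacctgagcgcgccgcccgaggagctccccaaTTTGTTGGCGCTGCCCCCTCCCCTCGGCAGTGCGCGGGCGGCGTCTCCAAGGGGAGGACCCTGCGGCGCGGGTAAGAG
Col4a1: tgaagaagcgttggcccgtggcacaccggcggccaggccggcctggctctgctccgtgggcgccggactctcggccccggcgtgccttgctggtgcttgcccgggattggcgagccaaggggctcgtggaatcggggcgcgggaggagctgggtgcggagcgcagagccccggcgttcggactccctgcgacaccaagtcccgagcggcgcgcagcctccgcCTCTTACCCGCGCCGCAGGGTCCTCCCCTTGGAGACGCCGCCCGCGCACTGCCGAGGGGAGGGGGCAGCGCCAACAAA
The distal of the 2 Dab2 windows (chr15:6299539-6299838, plus strand) is shown because Dab2 alone of the 8 genes with a window had the letters GATAA, the core that GATA factors such as the endoderm regulators Gata4 and Gata6 recognise. They occur there at 2 places, once on each strand, in capitals (TTATC on the strand printed).
Dab2: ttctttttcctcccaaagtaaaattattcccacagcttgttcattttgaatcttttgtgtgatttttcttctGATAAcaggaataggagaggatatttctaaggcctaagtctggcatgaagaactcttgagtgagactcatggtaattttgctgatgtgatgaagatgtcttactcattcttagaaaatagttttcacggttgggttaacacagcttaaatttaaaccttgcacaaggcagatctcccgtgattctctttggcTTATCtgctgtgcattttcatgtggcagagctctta
GATAA occurred on either strand in 25.4% of all 32851 windows. Of the other letters searched on both strands, CCAAT (37.4% of all windows) occurred once each in the windows of Lamb1, Col4a1 and Col4a2. GGGCGG (35.7% of all windows) occurred 3 times in the Col4a2 window, 2 times in those of Lamb1 and Lrp2 and once in those of Col4a1 and Serpinh1. A match of letters is a description of the window and says nothing about binding.

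The direction of each preparation was checked first. Xist, which silences an X chromosome in females, had ratios of 2.25, 2.09 and -1.55 in preparations 1, 2 and 3. The Y-linked gene Eif2s3y had -1.75, -1.76 and 1.93, and both dye orientations gave the same sign in each. The preparation labelled 3 therefore goes against its labels, with ratios read as Cy5 over Cy3. Labels were kept, and the main results are also given with both arrays of that preparation turned in sign ("preparation 3 turned").

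With labels kept, none of the 10 genes was called different between the sexes. limma called 0 of the 10 genes, and 0 of all 18606 rows tested (0%; 484 rows had an unadjusted p under 0.05, none of them from the set). Means ran from -0.20 (Lamc1) to 0.19 (Lama1). The 95% intervals of the 10 means together reached from 0.711-fold to 1.40-fold, so a larger average difference lay outside the interval of every gene in that fit. Some other fits gave wider intervals, as with the preparation labelled 3 left out (0.625-fold to 1.55-fold). With preparation 3 turned the intervals reached from 0.713-fold to 1.40-fold. In that reading limma again called 0 of the 10 (smallest adjusted p = 0.685, for Lrp2 and Dab2), and 0 of all 18606 rows. There 1356 rows had an unadjusted p under 0.05, none of them from the set. Neither test called Xist or Eif2s3y, which stood at 1.965 and -1.812 with preparation 3 turned (limma adjusted p = 0.466 and 0.187). The test on 3 preparation means thus missed sex differences of that size, and the lack of calls does not show equal expression. The median of the set was -0.0048, beside 0.0062 over all rows; with preparation 3 turned it was 0.035, beside 0.0045. Its value by preparation was 0.092, -0.060 and -0.033 (exact sign-flip test, two-sided, p = 1, and p = 0.75 with preparation 3 turned, where 0.25 is the smallest possible).

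**Figure D1:**
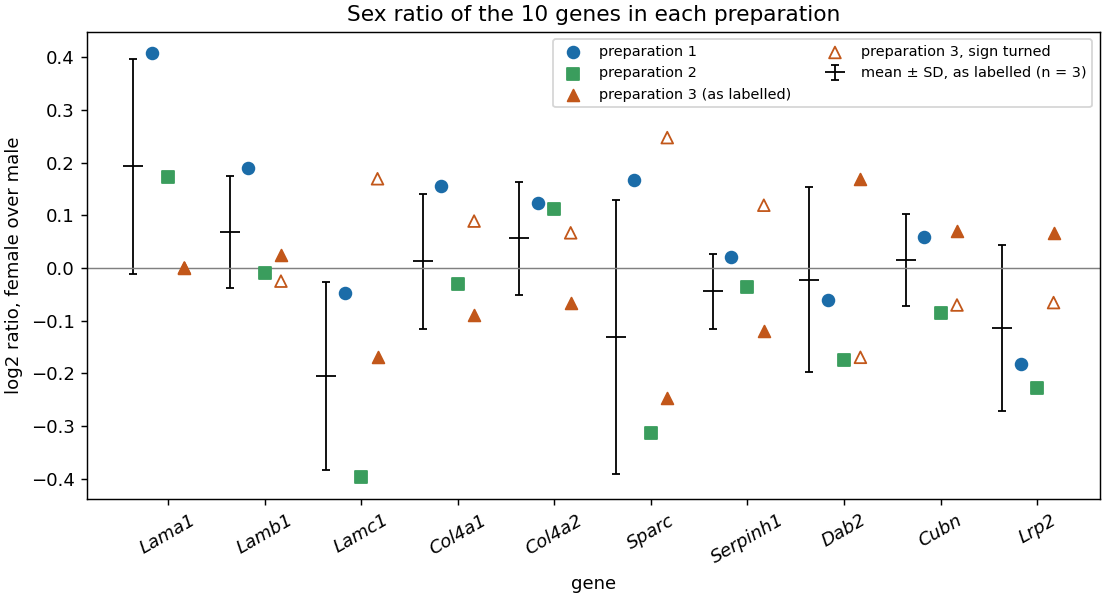
Log2 ratio of female over male RNA (vertical axis) of the 10 genes (horizontal axis) in preparations 1 (circles), 2 (squares) and 3 (filled triangles as labelled, open triangles with the sign turned); black bars are the mean and SD over the 3 preparations as labelled. Most points lie between -0.25 and 0.25, and only Lamc1 has its 3 labelled values on one side of 0.

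The laminin chains did not share a direction. Lama1, the alpha chain that lets the trimer polymerise and bind cells, was higher in female RNA on both arrays of preparation 1 (0.45 with female RNA in Cy5 and 0.37 with female RNA in Cy3). In preparation 2 it stood at 0.42 and -0.072, and in the preparation labelled 3 at -0.036 and 0.035. The 3 high values were thus both arrays of preparation 1 and 1 of preparation 2, and the preparation means (0.41, 0.17 and -0.00017) averaged 0.19 ± 0.20, with or without the turn since the last lay at 0. Lamc1, the gamma chain, stood at -0.047, -0.40 and -0.17, a mean of -0.20 ± 0.18 and of -0.092 ± 0.29 with preparation 3 turned. It was the 1 gene of 10 with a single sign in all preparations as labelled, beside 18.9% of all rows. Its arrays split by dye, at -0.42, -0.89 and -0.45 with female RNA in Cy5 and at 0.33, 0.092 and 0.11 with female RNA in Cy3, so no sign was shared by the 2 orientations.

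Lamb1, the beta chain, was measured by 4 probes, whose mean stood at 0.19, -0.010 and 0.025 in the 3 preparations (0.068 ± 0.11; 0.051 ± 0.12 with preparation 3 turned). The probes disagreed in sign. Feature 10420 stood at 0.24, 0.16 and 0.13 (0.18 ± 0.056), feature 18402 at 0.40, 0.25 and -0.18 (0.16 ± 0.30), feature 8118 at 0.055, -0.17 and 0.066 (-0.016 ± 0.13) and feature 10995 at 0.065, -0.28 and 0.084 (-0.044 ± 0.21). With preparation 3 turned, feature 18402 was positive on all 6 arrays (mean 0.28 ± 0.11) and the means of the 4 probes ran from -0.10 to 0.28. That range of 0.38 compares with a median of 0.25 over the 98 genes with 4 probes. As labelled the range was 0.22, beside 0.21 for those genes. With labels kept and 1 row per probe, limma gave feature 10420 an unadjusted p under 0.05, the only one of the 16 probes. It did not pass after adjustment over 21446 rows (limma adjusted p = 1). With preparation 3 turned that feature averaged 0.090 ± 0.19.

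**Figure D2:**
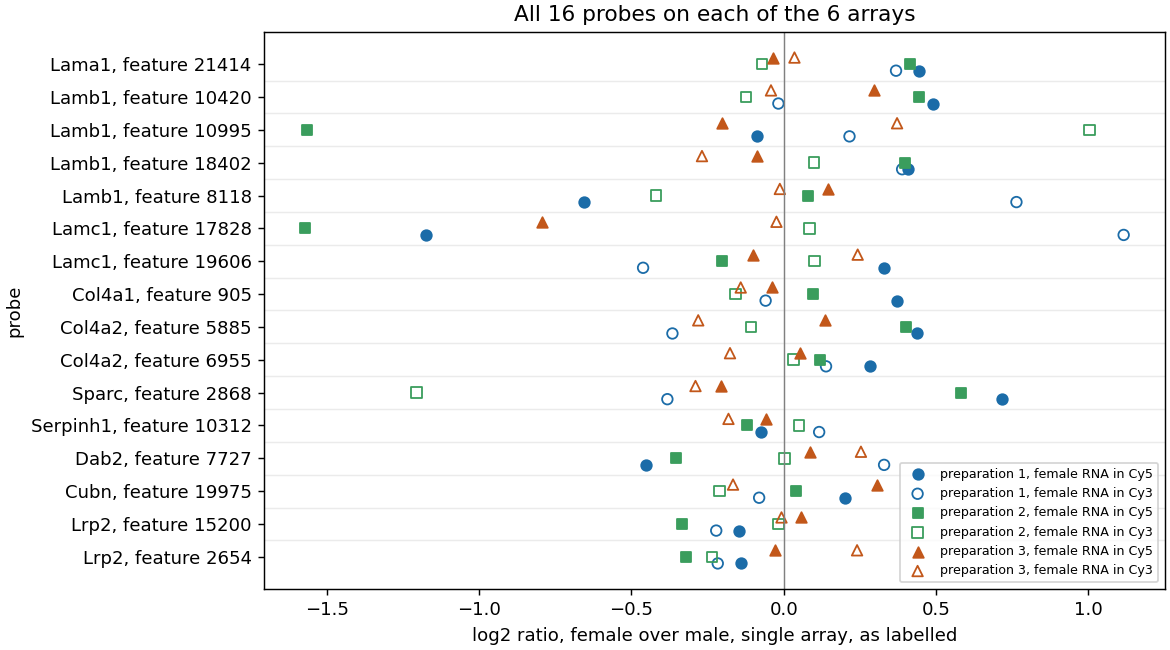
Log2 ratio of female over male RNA, as labelled, on single arrays (horizontal axis) for each of the 16 probes (vertical axis, feature number on the array); colour and shape mark the preparation, filled points female RNA in Cy5 and open points female RNA in Cy3. Filled and open points stand far apart for Lamc1 feature 17828, Lamb1 feature 10995 and Sparc, and lie closer together for Serpinh1 and both probes of Lrp2.

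The type IV collagen chains lay close to 0. Col4a1 stood at 0.16, -0.030 and -0.089 in the 3 preparations (0.012 ± 0.13), and its neighbour Col4a2 at 0.12, 0.11 and -0.067 (0.056 ± 0.11). With preparation 3 turned they averaged 0.072 ± 0.094 and 0.10 ± 0.030. Col4a2 then had a positive value of similar size in every preparation (0.12, 0.11 and 0.067), the smallest SD of the 10 genes in that reading. Its adjusted p was 0.695 (limma), and its 95% interval was -0.022 to 0.22. With the 6 arrays fitted singly, a dye term and the preparation number as a block (preparation 3 turned), the interval was 0.012 to 0.19, and the adjusted p = 0.476 (limma). That fit lets the 2 arrays of a preparation, made from the same RNA, count as replicates. Its interval therefore does not rest on the spread between preparations alone. Both Col4a2 probes gave that order of signs: feature 5885 stood at 0.037, 0.15 and -0.072 as labelled, and feature 6955 at 0.21, 0.075 and -0.061. Their means differed by 0.038 (0.030 with preparation 3 turned), against a median difference of 0.088 (0.11) over the 1677 genes with 2 probes. The array values did not hold 1 sign, however: on arrays with female RNA in Cy5 Col4a2 stood at 0.36, 0.26 and 0.095, and on those with female RNA in Cy3 at -0.11, -0.037 and -0.23. Correlations over the 6 arrays, which come from 3 preparations, were computed with labels kept and not with preparation 3 turned. Each gene's dye effect (its mean Cy5 over Cy3 ratio) was removed before the arrays were turned by their dyes. The 2 genes whose promoter windows overlap then had r = 0.74 as labelled. Over the 45 pairs of the set r ran, also as labelled, from -0.88 (Dab2 and Col4a2) to 0.91 (Cubn and Lamc1), so 1 pair's value is a description only.

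Sparc had the widest spread of the 10 genes as labelled, with 0.17, -0.31 and -0.25 in the 3 preparations (-0.13 ± 0.26), and 0.034 ± 0.30 with preparation 3 turned. Its arrays ran from 0.72 to -1.21, the highest with female RNA in Cy5 in preparation 1 and the lowest with female RNA in Cy3 in preparation 2. Serpinh1 had the narrowest spread, at 0.021, -0.035 and -0.12 (-0.044 ± 0.071; 0.035 ± 0.078 with preparation 3 turned), and all its arrays lay between -0.18 and 0.12. Sparc and Serpinh1 were each measured by 1 probe.

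Of the endocytic genes, Lrp2 and its adaptor Dab2 were lower in female RNA in preparations 1 and 2 and higher in the preparation labelled 3. Lrp2 stood at -0.18, -0.23 and 0.066 (-0.11 ± 0.16), and Dab2 at -0.061, -0.17 and 0.17 (-0.022 ± 0.18). On single arrays Lrp2 was at -0.14, -0.33 and 0.014 with female RNA in Cy5, and at -0.22, -0.13 and 0.12 with female RNA in Cy3. Every array of Lrp2 in preparations 1 and 2 was thus below 0 and both of the preparation labelled 3 above it. With that preparation turned, Lrp2 was the 1 gene of 10 with a single sign on all 6 arrays (4.4% of all rows had one), at -0.16 ± 0.083. That sign held for the mean of its 2 probes and for neither probe alone. Dab2 then stood at -0.14 ± 0.064. Neither of the 2 genes passed limma's test (adjusted p = 0.685 for both; 95% intervals -0.32 to 0.0022 and -0.28 to 0.0089). When all 6 arrays entered the fit singly, with a dye term and the preparation number as a block (preparation 3 turned), Lrp2 had a 95% interval of -0.28 to -0.039 and an adjusted p = 0.393 (limma). That fit called 39 of 18606 rows (0.21%), none of them from the set. Because the 2 arrays of a preparation count there as replicates, its interval and calls do not rest on the 3 preparations alone.

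The 2 probes of Lrp2 shared the sign of each preparation. Feature 15200 stood at -0.18, -0.18 and 0.025, and feature 2654 at -0.18, -0.28 and 0.11. Their means lay 0.0048 apart as labelled and 0.059 apart with preparation 3 turned, and single arrays differed by more, as with female RNA in Cy3 in the preparation labelled 3 (-0.0073 and 0.24). The arrays of Dab2 split by dye in preparations 1 and 2, at -0.45 and -0.35 with female RNA in Cy5 and at 0.33 and 0.0031 with female RNA in Cy3. The sign of Dab2 in those preparations thus rests on averaging the orientations. In the preparation labelled 3 both arrays were above 0, at 0.085 with female RNA in Cy5 and 0.25 with female RNA in Cy3. Cubn, the receptor that pairs with Lrp2 in taking up vitamin carriers, lay near 0 at 0.060, -0.086 and 0.070 (0.015 ± 0.087; -0.032 ± 0.080 with preparation 3 turned). It was measured by 1 probe, and its sign followed the dye on every array: 0.20, 0.040 and 0.31 with female RNA in Cy5, and -0.081, -0.21 and -0.17 with female RNA in Cy3. With preparation 3 turned, 4 of the 10 genes kept 1 sign in the 3 preparations (Lama1 and Col4a2 female-higher, Dab2 and Lrp2 male-higher), beside 30.6% of all rows, a share not far from that background. Lama1 counts there by a value of 0.00017 in the third preparation.

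The dye effect, Cy5 over Cy3 with sex cancelled within a preparation, was larger than the sex ratio as labelled for 7 of the 10 genes, beside 75.9% of all rows. For 3 of the 10 genes (Lamc1, Col4a2 and Cubn) Cy5 over Cy3 had 1 sign on all 6 arrays, beside 25.7% of all rows. Its median size was 0.15 over the 10 genes and 0.15 over all rows. Median sex ratios were 0.062 and 0.058 in size as labelled, and 0.082 and 0.070 with preparation 3 turned. Sparc had the highest dye effect (0.50 ± 0.43) and Lamc1 the lowest (-0.38 ± 0.11), and Serpinh1 (-0.039 ± 0.088) and Lrp2 (-0.038 ± 0.070) had the smallest in size. The 2 probes of Lamc1 differed in it by 0.81 (-0.79 ± 0.38 for feature 17828 and 0.024 ± 0.32 for feature 19606), where genes with 2 probes had a median difference of 0.22. Feature 17828 also gave the lower sex ratio, at -0.39 ± 0.36, and feature 19606 stood at -0.015 ± 0.074. That difference of 0.38 as labelled was 0.059 with preparation 3 turned (-0.12 ± 0.58 and -0.062 ± 0.010), where genes with 2 probes had a median difference of 0.11. The negative mean of Lamc1 as labelled thus came from 1 of its 2 probes, which read -1.17, -1.57 and -0.79 where female RNA carried Cy5. The part of probe-specific dye effects in these ratios was not tested.

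**Figure D3:**
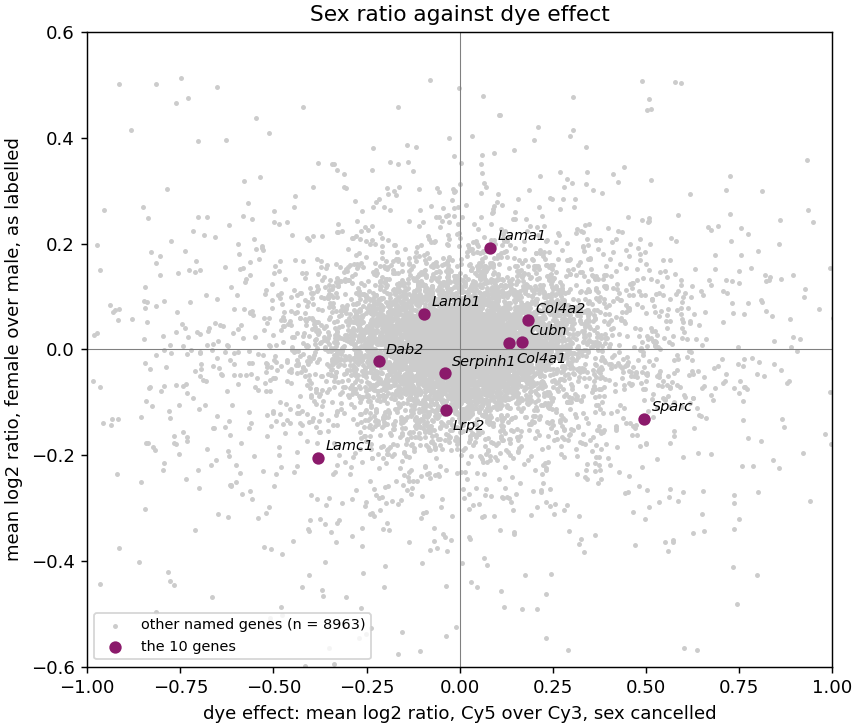
Mean log2 ratio of female over male RNA as labelled (vertical axis) against the dye effect, the mean log2 ratio of Cy5 over Cy3 with sex cancelled (horizontal axis), for the 10 genes (named, purple) and the other 8963 named genes (grey; 107 lie outside the axes). The 10 genes lie within the cloud of all genes, with Sparc and Lamc1 at its sides.

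Other components of basement membranes gave no call either. Of 31 listed, 25 were measured, 0 passed limma's test as labelled or with preparation 3 turned, and the median was -0.0020 (0.020 turned). By the naming rule the smallest p among genes of 1 sign belonged to the laminin chain Lama3 (0.21 ± 0.21) and the calcium-binding protein Smoc2 (-0.17 ± 0.18) as labelled. With preparation 3 turned it belonged to the laminin chains Lamb2 (-0.35 ± 0.14, limma adjusted p = 0.643) and Lama5 (-0.24 ± 0.17, adjusted p = 0.685). Col4a5, an X-linked type IV collagen chain named after its values were seen, stood at 0.66, 0.33 and -0.10 (0.36 ± 0.28 turned).

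Collagen folding and modification (17 of 24 measured, median -0.031, 0.020 turned), membrane receptors and linkers (21 of 25, -0.015 and 0.020) and remodelling enzymes (14 of 16, 0.023 and 0.021) had 0 calls in either reading. Turned, the lysyl hydroxylase Plod3 stood at -0.23 ± 0.017, the prolyl hydroxylase subunit P4hb at 0.19 ± 0.016 and the laminin receptor Dag1 at -0.15 ± 0.051, none past the test (limma adjusted p = 0.610, 0.633 and 0.654). As labelled the rule named the lysyl hydroxylase Plod1 (0.11 ± 0.060), the laminin-binding integrin chain Itga3 (-0.17 ± 0.15) and the protease inhibitor Timp2 (0.064 ± 0.050), each with adjusted p = 1. It also named the coat protein Sec23a (0.062 ± 0.024) and the laminin receptor Bcam (0.078 ± 0.076) as labelled, and the tetraspanin Cd151 (-0.20 ± 0.12) and the proteases Adamts1 (-0.35 ± 0.25) and Mmp2 (0.19 ± 0.13) with preparation 3 turned.

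Endocytic receptors and coat adaptors had 23 of 34 genes measured, with a median of 0.014 (-0.0045 turned) and 0 calls. As labelled, 6 of the 23 were female-higher in all 3 preparations and 0 male-higher, beside 9.5% and 9.44% of all rows; turned, the counts were 2 and 5, beside 16.8% and 13.7%. The transferrin receptor Tfrc stood at 0.19 ± 0.096 and the clathrin adaptor subunit Ap2s1 at 0.16 ± 0.042 as labelled (limma adjusted p = 1 for both), and turned the rule named the adaptor subunit Ap2b1 at -0.24 ± 0.11 and the clathrin light chain Clta at 0.16 ± 0.069 (adjusted p = 0.646 and 0.654). The receptors and adaptors beside Lrp2 and Dab2 thus lay on both sides of 0.

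Markers of the primitive endoderm other than the 10 genes (13 of 22 measured) had list medians of 0.058, 0.022 and -0.056 in the 3 preparations as labelled. They had 0 calls on the preparation means in either reading. The median of their means with preparation 3 turned was 0.043. In that reading 4 of the 13 were female-higher in each preparation and 1 male-higher, beside 16.8% and 13.7% of all rows. The endoderm regulators Gata4, Gata6 and Sox17 stood at -0.042 ± 0.24, 0.089 ± 0.068 and 0.082 ± 0.16 as labelled (0.043, 0.026 and 0.11 turned). The secreted carrier Ttr stood at -0.50 ± 0.12, the smallest unadjusted p of that list as labelled (limma adjusted p = 1), and at -0.15 ± 0.59 turned. Turned, the smallest p belonged to 2 X-linked genes, Rhox5 (1.30 ± 0.020) and Cited1 (0.18 ± 0.028), with adjusted p = 0.187 and 0.643 (limma). In the block fit of single arrays with preparation 3 turned, where the 2 arrays of a preparation count as replicates, Rhox5 was called (limma adjusted p = 0.0032).

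Markers of the other cells of the embryo are given beside these ratios, and their part in them was not tested. Trophectoderm markers (17 of 25 measured) had medians of -0.075, -0.069 and -0.026 in the 3 preparations as labelled, and the median of their means with preparation 3 turned was 0.012. Epiblast and inner cell mass markers (16 of 21) stood at 0.11, 0.12 and -0.089, and turned 12 of the 16 were female-higher in each preparation and 1 male-higher, beside the same 16.8% and 13.7% of all rows. The 10 genes themselves had medians of 0.092, -0.060 and -0.033. Markers of cells that could be carried along, cumulus and granulosa (6 of 12; 0.051, -0.045 and -0.10) and oviduct epithelium (4 of 7; -0.12, -0.052 and 0.0097), had 0 calls each. As labelled the rule named the trophectoderm factor Cdx2 (-0.24 ± 0.26), the adhesion molecule Cdh1 (-0.062 ± 0.032), the hyaluronan synthase Has2 of cumulus cells (-0.11 ± 0.13) and the mucin Muc1 of oviduct (-0.14 ± 0.036). Turned, it named Krt7 (-0.34 ± 0.045) and Lgals3 (0.52 ± 0.13) of trophectoderm, the pluripotency factors Nanog (0.39 ± 0.018) and Klf4 (0.25 ± 0.039), the granulosa factor Foxl2 (0.086 ± 0.041), and Pgr (-0.34 ± 0.12) and Epcam (0.080 ± 0.072) of the oviduct list. None passed limma's test on the preparation means; in the block fit of single arrays with preparation 3 turned, Nanog was called (adjusted p = 0.039) and the others were not.

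**Figure D4:**
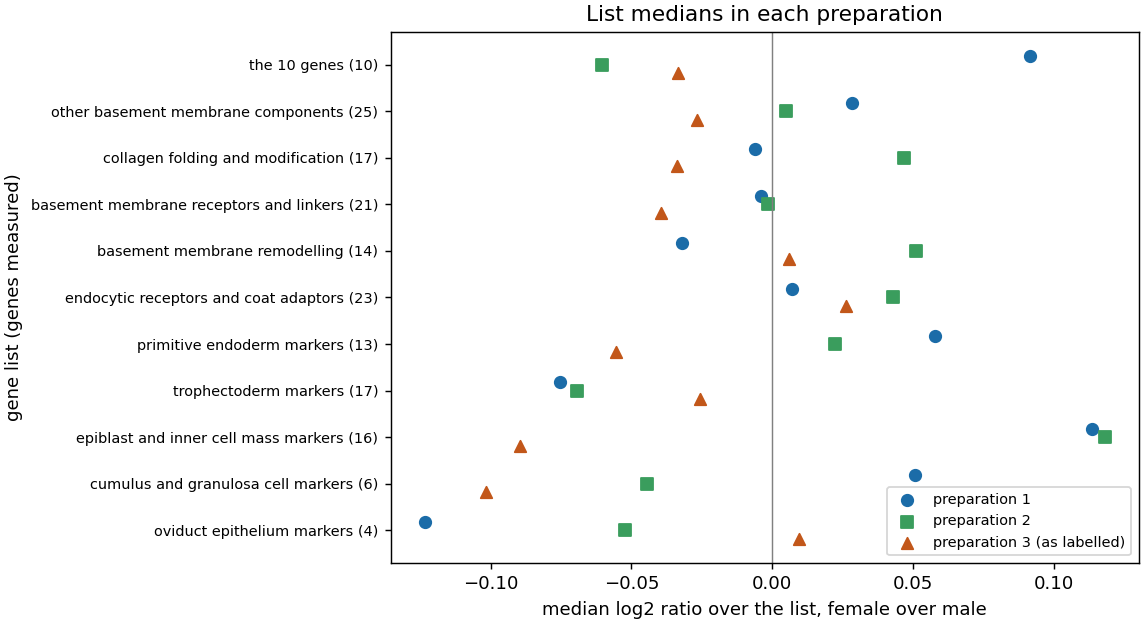
Median log2 ratio of female over male RNA (horizontal axis) over each gene list (vertical axis, with the number of genes measured) in preparations 1 (circles), 2 (squares) and 3 as labelled (triangles). As labelled, the endocytic list has its 3 medians above 0, the trophectoderm list and the receptors and linkers have theirs below 0, and those of the 10 genes are 0.092, -0.060 and -0.033. Turning preparation 3 moves its medians across 0, so none of those 3 one-sided lists keeps 1 side in that reading. Other lists become one-sided in it. The other basement membrane components, the primitive endoderm markers and the epiblast list then have every median above 0, and the oviduct list below 0.

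With labels kept, the mean of the 10 genes, with each gene's dye effect subtracted, was 0.076, -0.074 and -0.053 where female RNA carried Cy5. On the other arrays it was 0.091, -0.12 and -0.019, so it was high in preparation 1 and low in the others. Turning preparation 3 would make its values positive, so its low reading rests on its labels. The profile and the correlations given next were computed with labels kept and not with preparation 3 turned. The 5 named genes whose profile over the 6 arrays was most like it, among 8961, were Klhdc2 (Pearson's r = 0.996), Dtna (0.996), Grip1 (0.993), Brix1 (0.992) and Spon2 (0.989), given as a description over 6 arrays of 3 preparations. Members differed in how far they followed the mean of the other 9 genes, from r = 0.61 for Col4a1 and 0.52 for Lamc1 to -0.14 for Dab2 and -0.26 for Lrp2.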

How the data were processed

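Per the series' design text, scans were read with Feature Extraction and arrays combined with Luminator, without saying which program wrote the value table. That table, as the authors deposited it, holds log ratios of 21446 features on 6 arrays, none missing and 2.11% exactly 0. Neither log base nor direction nor centring is given. Because the deposited values end at exactly -2 and 2, they were read as log10 of Cy5 over Cy3; they were multiplied by 3.32 to log2, array medians lay between 0 and 0.0074, and no centring was added. Intensities were not analysed here, and the number of arrays limits the precision.

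Genes are means of probes with 1 platform symbol (11782 of 11813 such probes matched to GRCm38.p6 by gene number); 9633 probes stayed unnamed. Arrays were turned by their dyes, averaged within a preparation, and the mean was tested against 0 with limma 3.58.1 (R 4.3.3), Benjamini-Hochberg adjustment over 18606 rows at 0.05, and checked on simulated data. Fits on 6 arrays used the preparation as replicate block. The block correlation was 0.029 with labels kept and 0.15 with preparation 3 turned. The 2 arrays of a preparation, made from the same RNA, thus counted nearly as separate replicates in those fits. Named are the 10 genes, the label check, per other list the genes past the test or else up to 2 of smallest p among those of 1 sign in all preparations, in both readings, and the 5 closest profiles. Gata4, Sox17 and Col4a5 were named after their values were seen. The 10 genes and all lists were chosen with earlier results of these data known.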

Additional observations from a re-analysis of the deposited data

Results flagged for a closer look

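Of the 10 genes, 3 had every array of one dye orientation on one side of 0 and every array of the other on the opposite side, beside 25.7% of all rows; the difference was not tested. The mean of the arrays with female RNA in Cy5 minus that of the arrays with female RNA in Cy3 was -0.76 for Lamc1, 0.36 for Col4a2 and 0.33 for Cubn, whose single probe gave it. Among single probes of genes with several, it was 0.58 for Col4a2 feature 5885, 0.47 for Lamb1 feature 10420 and -1.15 for Lamb1 feature 10995. Lamc1 showed the split only as the mean of its probes, neither of which did so alone.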

How the results depend on the processing

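No gene of the set was called under any alternative run, with the preparation turned, left out, blocked or read by single dye. The number of rows called by limma was 0 with labels kept, except 628 from only those arrays where female RNA carried Cy3, where the dye effect does not cancel. It was 0 with preparation 3 turned, and 39 with preparation 3 turned, replicate block and dye term. With the replicate block and labels kept, 0 rows were called and all 10 means were the same. Signs of means near 0 changed. With preparation 3 turned, with or without the block, Sparc stood at 0.034, Serpinh1 at 0.035 and Cubn at -0.032. With single preparations left out, Col4a1 ranged from -0.059 (without replicate 1) to 0.063 (without replicate 3), Dab2 from -0.12 (without replicate 3) to 0.054 (without replicate 2), and Cubn from -0.013 (without replicate 3) to 0.065 (without replicate 2). From only those where female RNA carried Cy5, Lamb1 stood at -0.028 and Sparc at 0.36. From only those where it carried Cy3, Lamc1 stood at 0.18, Col4a1 at -0.12, Col4a2 at -0.13, Dab2 at 0.20 and Cubn at -0.15. The cause of these changes was not tested. Centring and scaling, the median over probes, exact zeros as missing and named genes alone changed no sign among the 10. The median of the set moved by less than its SD over preparations in every alternative. Without signal intensities, dim probes could not be set apart.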
